A study of Mus musculus with 12 samples.

Results

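Transcript levels of genes of glycolysis and of the transcriptional response to hypoxia were examined in lipopolysaccharide (LPS)-matured dendritic cells (DCs) grown from mouse bone marrow. The set was chosen by function, with earlier results of these data known. It lists 37 genes: the glucose transporters and glycolytic enzymes, the lactate and pyruvate switch (lactate dehydrogenases, monocarboxylate transporters, pyruvate dehydrogenase kinases), and the hypoxia-inducible factor Hif1a with its prolyl hydroxylases and a few of its known targets. A named probe was found for 36 of the 37 genes, out of 24232 genes with a named probe on the arrays. Pkm is not analysed here. Of the 36 genes, 33 were well above background on all 12 arrays, and Pdk4 was well above background on 0 of 12.

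The 4 groups compared came from female C57BL/6 mice. Young DCs came from 2-month-old untreated mice. Dysbiotic DCs came from 2-month-old mice that had an antibiotic cocktail (ampicillin, neomycin, metronidazole and vancomycin) in the drinking water for 21 days. Old DCs came from 24-month-old untreated mice, and Old-LP DCs came from 24-month-old mice gavaged with Lactobacillus plantarum (LP) for 21 days. All cultures were grown in GM-CSF and IL-4 and matured with LPS at 1 µg/mL for 24 h, so LPS is common to every group and no unstimulated cells were compared. Each group had 3 one-colour Agilent arrays, lettered A, B and C. The study describes its array data as 3 independent sets, each pooling 3 mice.

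Glycolysis splits glucose into pyruvate in the cytosol and yields ATP without oxygen. Pyruvate is then either reduced to lactate and exported, or oxidised in mitochondria, a step that the pyruvate dehydrogenase kinases block. Hypoxia-inducible factor 1α, encoded by Hif1a, raises the transcription of most of these genes. Prolyl hydroxylases mark the factor for degradation when oxygen is present, and some of them are themselves its targets. In DCs, Toll-like receptor ligands such as LPS are known to increase glycolysis, which supports their maturation.

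The A and B arrays were brighter than the C arrays: 61.2% to 66.4% of spots were well above background on A and B, against 37.3% to 46.0% on C. All A and B arrays lay on the first slide, the C arrays of Young and Dysbiotic DCs on the second and those of Old and Old-LP DCs on the third. Within a group, a gene of the set differed between A and B by a median of 0.0917 in absolute log2 intensity, and C from the mean of A and B by 0.635. Comparisons were therefore made within letters, by limma with the replicate letter as a block, and a gene was called when its adjusted p was at most 0.05 over all probes and its log2 fold change at least 0.5 in size. At C, Old and Old-LP arrays lay on another slide than Young and Dysbiotic arrays. Within C the letter block thus cannot part slide from age. Levels below are quantile-normalized log2 intensities at the gene's brightest probe and are compared between groups for 1 probe at a time.

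The log2 fold change lay below 0 for 28 of 36 genes in Old against Young DCs and above 0 for 26 of 36 in Old-LP against Old DCs. Against Young DCs, 3 of 36 genes fell in Old DCs: the prolyl hydroxylase Egln3, the hypoxia-response gene Ndrg1 and the pyruvate dehydrogenase kinase Pdk1. None rose by limma, although 2 were higher at an unadjusted p below 0.05. Over all genes, 1.42% were called lower and 1.64% higher in this comparison. Of the genes well above background on all 12 arrays, 4.27% were called in either direction. Against Old DCs, 2 of 36 genes rose in Old-LP DCs, Pdk1 and Ndrg1, and none fell by limma. Of the set, 13 genes were higher and 3 lower at an unadjusted p below 0.05, where 15% of all genes passed in either direction. Here 1.18% of all genes were called higher, 1.20% lower, and 3.26% of the genes well above background in either direction. In these bulk samples fewer cells of a type and less RNA per cell cannot be told apart.

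The median log2 fold change of the 36 genes was -0.33 in Old against Young DCs, beside 0.0026 over all genes and -0.025 over the genes well above background. In that comparison 15 genes were lower at an unadjusted p below 0.05, where 14.7% of all genes passed in either direction. Within letters, 21 of 36 genes were lower in Old DCs at A, B and C alike, beside 19.5% of all genes and 25.9% of those well above background. In Old-LP against Old DCs the median was 0.269, beside 0.0106 over all genes. There 18 of 36 genes were higher in Old-LP DCs at each letter, beside 18.2% of all genes and 24.3% of those well above background. These 2 comparisons share the Old arrays, so they are not independent of each other. The medians lay nearer 0 at C than at A and B. The median of Old against Young DCs was -0.319 at A, -0.367 at B and -0.148 at C, and that of Old-LP against Old DCs was 0.356, 0.344 and 0.122.

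**Figure D1:**
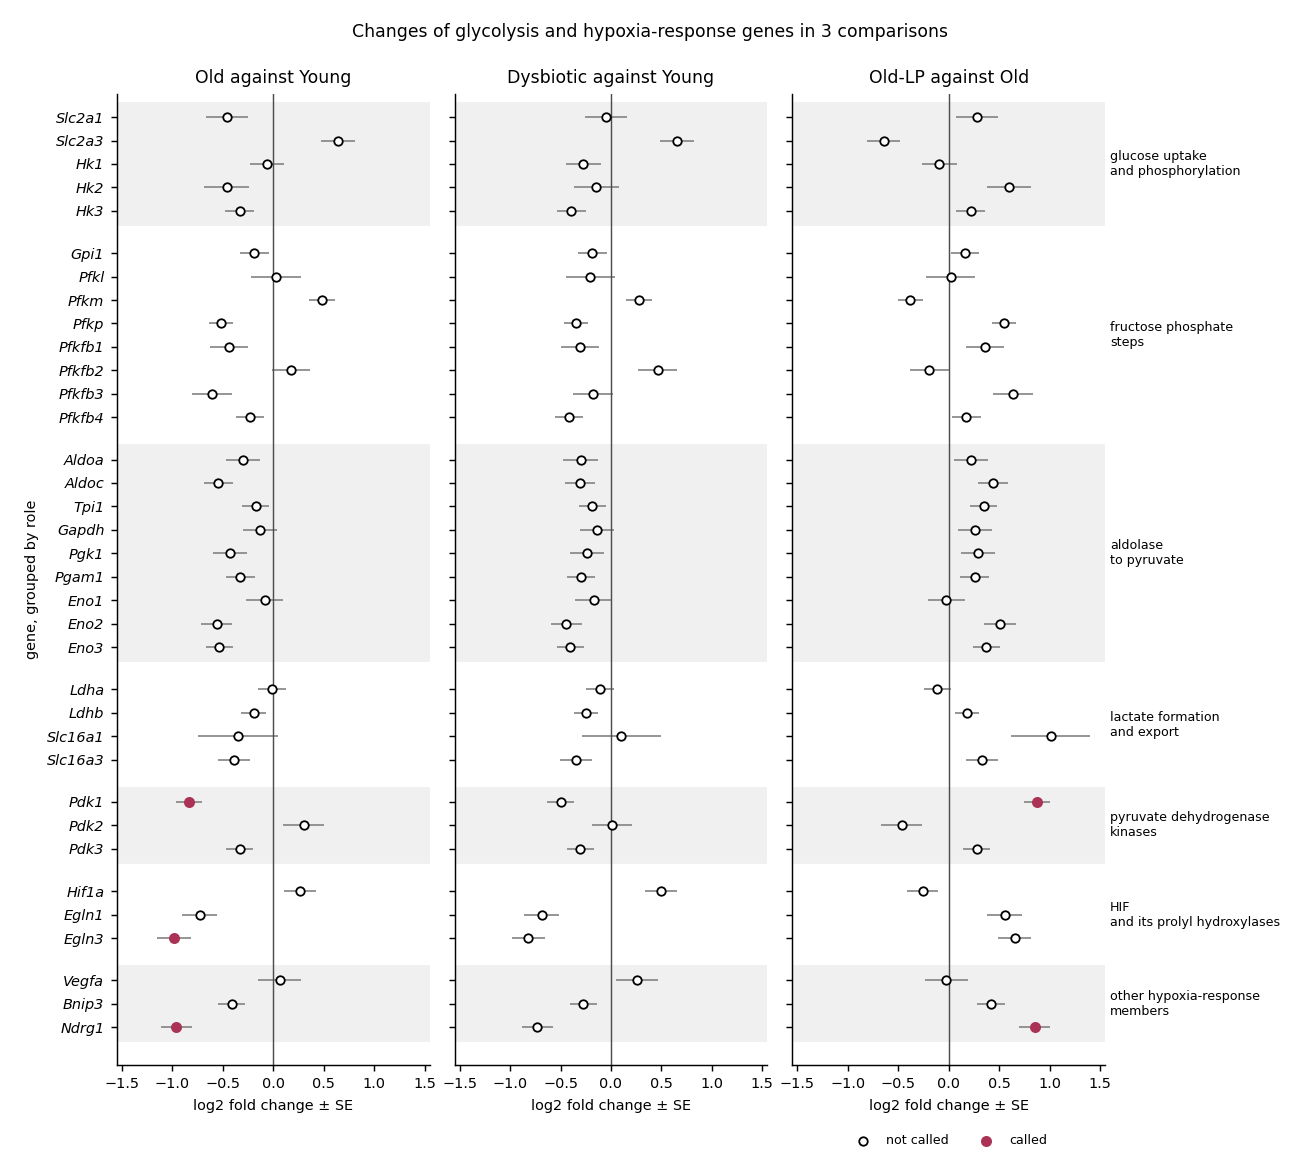
Log2 fold change with its standard error (x axis) for 35 genes (y axis, grouped by role; Pdk4, below background, left out) in Old against Young, Dysbiotic against Young and Old-LP against Old DCs, 3 arrays per group; filled points mark called genes. The called genes are Egln3, Ndrg1 and Pdk1 at the left and Pdk1 and Ndrg1 at the right. Slc2a3, Pfkm, Hif1a, Pfkfb2, Pdk2 and Vegfa lie on the other side of 0 from most genes in all 3 panels, Pdk2 and Vegfa close to 0 in some.

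In Dysbiotic against Young DCs 29 of 36 genes lay below 0. No gene of the set was called by limma, with the smallest adjusted p at 0.0842 for Egln3. The median log2 fold change was -0.261, beside -0.0093 over all genes. At an unadjusted p below 0.05, 9 genes were lower and 3 were higher, where 11.0% of all genes passed in either direction. Over all genes 0.264% were called lower and 1.11% higher, and 1.84% of the genes well above background were called in either direction. At each of the 3 letters, 22 of 36 genes were lower, beside 22.7% of all genes and 28.8% of those well above background. Dysbiotic and Old DCs were both set against the same Young arrays. Between Old and Dysbiotic DCs no gene of the set was called by limma, beside 0% of all genes called higher and 0.00413% called lower. At an unadjusted p below 0.05 there was 1 gene, Pdk1, where 4.7% of all genes passed in either direction. Between Old-LP and Young DCs limma also called none, beside 0% of all genes called in either direction. Here 0 genes had an unadjusted p below 0.05, where 2.89% of all genes passed. The median difference of the set between Old-LP and Young DCs was -0.055. At each letter, 5 genes were lower in Old-LP DCs, beside 11.0% of all genes and 11.5% of those well above background.

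**Figure D2:**
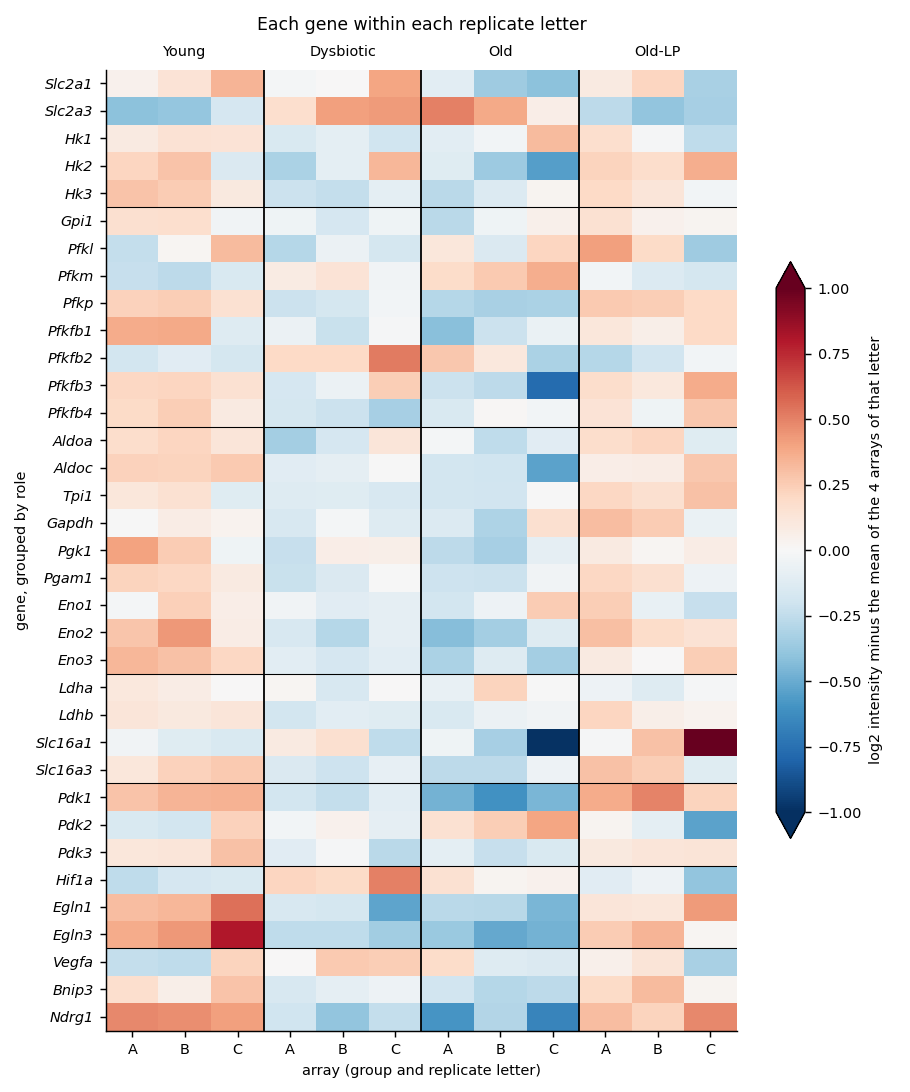
Each row is a gene, grouped by role, and each column an array. Colour gives the normalized log2 intensity minus the mean of the 4 arrays that carry the same letter, and colours stop at 1 in either direction, which Slc16a1 passes on the C array of Old-LP DCs. Pdk1, Egln1, Egln3 and Ndrg1 are blue on every Dysbiotic and Old array and red, or near 0 for Egln3 on C of Old-LP DCs, on every Young and Old-LP array, while Slc2a3 shows the opposite.

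The cultures were checked against marker genes fixed for 7 cell types that the cultures could hold. In Young, Dysbiotic and Old DCs all 10 DC markers exceeded background clearly on each array, as did 9 of 10 in Old-LP DCs, and their summed level on the log2 scale was 18.1 to 18.5 in Young, 18.4 to 18.7 in Dysbiotic, 18.5 to 18.7 in Old and 18.2 to 18.5 in Old-LP DCs. Of these 10, the MHC class II gene H2-Ab1 rose (log2 fold change 0.79, adjusted p = 0.0417) and the costimulatory gene Cd86 fell (-0.59, adjusted p = 0.0493) in Old against Young DCs. In Dysbiotic against Young DCs 8 of 10 lay below 0 (median -0.149), and none was called by limma there or in Old-LP against Old DCs, with 2 at an unadjusted p below 0.05 in each. The 9 megakaryocyte and erythroid markers moved with the groups in their sum, but not all alike. In Old and in Dysbiotic against Young DCs 6 lay above 0 and 3 below. In Old-LP against Old DCs 3 lay above 0 and 6 below. Their summed log2 level was 15.8 to 16.2 in Young and 15.9 to 16.3 in Old-LP DCs, against 16.4 to 16.9 in Dysbiotic and 16.3 to 16.9 in Old DCs. Of these 9, 5 rose in Old against Young DCs, led by Itga2b at 2.44 and Gp9 at 2.36 in log2 fold change, 4 rose in Dysbiotic against Young DCs and 4 fell in Old-LP against Old DCs. The defining erythroid factor Klf1 was well above background on no Dysbiotic or Old array. The T cell markers, 4 of 5 with a probe, summed to 12.05 to 12.46 in Old DCs, 13.0 to 14.3 in Dysbiotic, 13.2 to 14.5 in Young and 13.2 to 13.9 in Old-LP DCs, and none of the 4 was called by limma, with 3 at an unadjusted p below 0.05 in Old against Young and in Old-LP against Old DCs. Old array C stood apart from Old A and B. The 8 neutrophil markers summed to 15.74 on Old C against 12.91 and 12.87 on Old A and B, and to 14.23 to 14.43 in Young, 13.45 to 14.06 in Dysbiotic and 14.51 to 15.13 in Old-LP DCs. Their median log2 fold change was -0.56 in Old against Young DCs and -0.70 in Dysbiotic against Young DCs, with 6 of 8 below 0 in each, and 1.14 in Old-LP against Old DCs, with 6 of 8 above 0. The 1 gene of them called, Camp, lay the other way, higher in Old and Dysbiotic than in Young DCs (log2 fold changes 2.71 and 2.46) and lower in Old-LP than in Old DCs (-2.03). The 5 B cell markers summed to 14.05 on Old C and 11.61 to 12.80 on the other 11 arrays, with none called by limma and 0 at an unadjusted p below 0.05. The 6 mast cell and basophil markers summed to 15.81 on Old C and 13.66 and 13.55 on Old A and B, and to 14.35 to 15.45 in Young, 14.07 to 15.41 in Dysbiotic and 14.51 to 15.20 in Old-LP DCs, and 1 of them, Ms4a2, was called, higher in Old-LP than in Old DCs. The 8 macrophage and monocyte markers summed to 17.63 to 18.31 over all arrays. In Old against Young DCs 6 of 8 lay above 0 (median 0.049) and in Old-LP against Old DCs 5 of 8 below 0 (median -0.15). The 1 gene of them called, Fcgr1, lay against most of the list: it fell in Old against Young DCs (-1.24) and rose in Old-LP against Old DCs (0.98). The part of these cells in the results on the glycolysis and hypoxia-response genes was not tested.

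Egln3 encodes a prolyl hydroxylase of the HIF subunits and is itself a known HIF target. Its promoter, from 250 bases before to 50 after the annotated start, lies at chr12:54203825-54204124 on the minus strand of GRCm38.p6 in RefSeq, and is shown because the gene was called. Capitals mark the core of the hypoxia response element, ACGTG or GCGTG searched on both strands, and the copy here starts 229 bases before the gene's start:
Egln3: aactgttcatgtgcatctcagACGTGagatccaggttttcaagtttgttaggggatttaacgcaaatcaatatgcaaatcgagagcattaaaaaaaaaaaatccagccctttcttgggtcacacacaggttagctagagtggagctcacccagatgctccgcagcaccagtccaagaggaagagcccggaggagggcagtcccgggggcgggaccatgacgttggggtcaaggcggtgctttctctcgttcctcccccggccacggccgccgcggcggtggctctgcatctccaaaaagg
In Young DCs its log2 intensity was 12.66, 12.60 and 13.67 on arrays A, B and C. In Dysbiotic DCs it was 12.03, 11.92 and 12.52, in Old DCs 11.92, 11.66 and 12.39, and in Old-LP DCs 12.54, 12.51 and 12.89. Every Old array lay below every Young and every Old-LP array, and the C array was the brightest in each group. Egln3 fell 1.98-fold in Old against Young DCs, with a log2 fold change of -0.99 (SE 0.17, adjusted p = 0.0249). The difference was -0.74 at A, -0.94 at B and -1.28 at C, where the 2 groups also lay on different slides. In Dysbiotic against Young DCs the log2 fold change was -0.82 (SE 0.17, adjusted p = 0.0842), and in Old-LP against Old DCs 0.66 (SE 0.17, adjusted p = 0.132), neither of which was called.

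Egln1, the prolyl hydroxylase that sets HIF stability in most cells, was described after its values were seen because it followed Egln3. Its log2 intensity was 13.20, 13.22 and 13.31 in Young DCs, 12.73, 12.72 and 12.23 in Dysbiotic DCs, 12.62, 12.61 and 12.30 in Old DCs, and 13.01, 13.01 and 13.18 in Old-LP DCs. All 6 Dysbiotic and Old arrays lay below all 6 Young and Old-LP arrays, a pattern whose share over all genes was not counted. The log2 fold change was -0.73 (SE 0.17, adjusted p = 0.0923) in Old against Young DCs, -0.69 (SE 0.17, adjusted p = 0.169) in Dysbiotic against Young DCs and 0.55 (SE 0.17, adjusted p = 0.227) in Old-LP against Old DCs, so no comparison passed. Hif1a itself lay the other way. Its log2 intensity was 12.92, 12.94 and 12.49 in Young DCs, 13.40, 13.29 and 13.15 in Dysbiotic DCs, 13.33, 13.13 and 12.69 in Old DCs, and 13.07, 13.05 and 12.25 in Old-LP DCs. The Dysbiotic arrays lay above the Young and Old-LP arrays without overlap, whereas Old overlapped both. The share of all genes that separate in this way was not counted either. The log2 fold change of Hif1a was 0.27 (SE 0.16, adjusted p = 0.558) in Old against Young DCs, 0.49 (SE 0.16, adjusted p = 0.304) in Dysbiotic against Young DCs and -0.26 (SE 0.16, adjusted p = 0.529) in Old-LP against Old DCs, none of which was called. Hif1a was above 0 against Young DCs under all 4 scalings used. The HIF protein, whose stability the hydroxylases set, is not measured by these arrays.

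**Figure D3:**
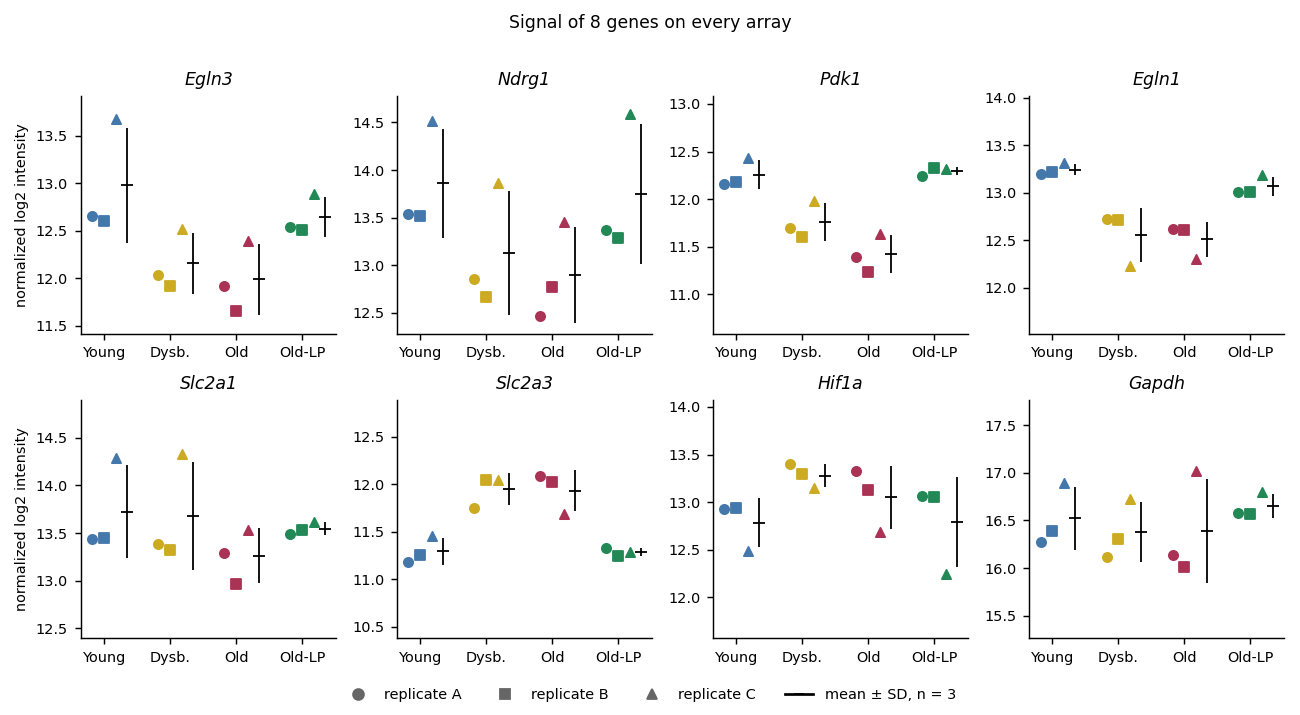
Normalized log2 intensity (y axis, each panel spanning the same range) of 8 genes on each of the 12 arrays, by group (x axis); circles, squares and triangles are replicates A, B and C, and the bar is the mean with its SD over 3 arrays. Egln3, Pdk1 and Egln1 have all Old arrays below all Young and Old-LP arrays, Slc2a3 has them above, and Gapdh overlaps between all groups.

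Ndrg1 encodes a stress-responsive cytoplasmic protein that hypoxia induces in many cell types. On arrays A, B and C its log2 intensity was 13.54, 13.52 and 14.52 in Young DCs and 12.86, 12.66 and 13.87 in Dysbiotic DCs. In Old DCs it was 12.47, 12.77 and 13.45, and in Old-LP DCs 13.37, 13.28 and 14.59. Old and Young arrays did not overlap, whereas Old C exceeded the A and B arrays of Old-LP DCs. Ndrg1 fell 1.95-fold in Old against Young DCs (log2 fold change -0.96, SE 0.15, adjusted p = 0.0201) and rose 1.80-fold in Old-LP against Old DCs (log2 fold change 0.85, SE 0.15, adjusted p = 0.0412). Within letters A, B and C, Old minus Young was -1.07, -0.75 and -1.07, and Old-LP minus Old was 0.90, 0.51 and 1.14. In Dysbiotic against Young DCs its log2 fold change was -0.73 (SE 0.15, adjusted p = 0.0978). Bnip3, a mitochondrial protein of hypoxia-induced mitophagy, had log2 fold changes of -0.41, -0.27 and 0.42 in Old against Young, Dysbiotic against Young and Old-LP against Old DCs, none called. Vegfa, the angiogenic growth factor and a classical HIF target, had 0.06, 0.26 and -0.02 in the same order.

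Pdk1 encodes a kinase that phosphorylates and switches off the pyruvate dehydrogenase complex, and HIF-1 is known to induce it. Its promoter around the first annotated start lies at chr2:71872974-71873273 on the plus strand (GRCm38.p6, RefSeq), and holds 2 copies of the core, in capitals, which start 78 and 2 bases before the start:
Pdk1: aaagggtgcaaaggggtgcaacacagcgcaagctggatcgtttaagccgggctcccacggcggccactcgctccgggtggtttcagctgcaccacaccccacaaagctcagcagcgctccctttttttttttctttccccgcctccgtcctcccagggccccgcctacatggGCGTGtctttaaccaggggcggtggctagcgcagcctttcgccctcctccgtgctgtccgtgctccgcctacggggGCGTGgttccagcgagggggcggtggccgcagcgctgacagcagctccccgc
A second annotated Pdk1 promoter, at chr2:71874654-71874953, holds no copy. On arrays A, B and C the Pdk1 log2 intensity was 12.16, 12.18 and 12.44 in Young DCs and 11.69, 11.60 and 11.98 in Dysbiotic DCs. It was 11.40, 11.23 and 11.64 in Old DCs and 12.24, 12.33 and 12.31 in Old-LP DCs. Old DCs were the lowest group at each letter, and their arrays overlapped neither Young nor Old-LP arrays. Pdk1 fell 1.78-fold in Old against Young DCs (log2 fold change -0.84, SE 0.13, adjusted p = 0.01905) and rose 1.83-fold in Old-LP against Old DCs (log2 fold change 0.87, SE 0.13, adjusted p = 0.0206). Within letters, Old minus Young was -0.76 at A, -0.94 at B and -0.80 at C, and Old-LP minus Old was 0.85, 1.10 and 0.68. In Dysbiotic against Young DCs the log2 fold change was -0.50 (SE 0.13, adjusted p = 0.193). The array held 3 dimmer probes for Pdk1, none called, with log2 fold changes of -1.59, -1.10 and 0.05 in Old against Young DCs and 1.77, 0.97 and -0.51 in Old-LP against Old DCs, so 1 of the 3 had the opposite sign to the brightest probe. That probe was the only 1 of the 3 well above background on all 12 arrays, and each of the others was so on 11. The other kinases of the family phosphorylate the same complex. Pdk3, well above background only on the A and B arrays, had -0.33 in Old against Young DCs and 0.28 in Old-LP against Old DCs, and Pdk2 lay the other way at 0.30 and -0.47. None of these was called.

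The core of the hypoxia response element was common in the set and outside it. It occurred in 41 of 53 RefSeq promoters of the set (77.4%) beside 14380 of 32851 promoters in all (43.8%). Of the promoters whose CpG count lay between the quartiles of the set's promoters, 6017 of 9929 held it (60.6%). ACGTG and GCGTG are short words, and a match describes these letters only.

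All 5 calls depended on a block for the letter or the slide. Without the replicate block, 0 of 36 genes were called in any comparison, beside 0.904% of all genes in Old against Young DCs and 0.512% in Old-LP against Old DCs. On the first slide alone, which leaves out the dimmer C arrays, 8 of 36 genes were called in Old against Young DCs, beside 10.3% of all genes, and 6 of 36 in Old-LP against Old DCs, beside 9.50%. The 8 were Egln3, Ndrg1, Pdk1, Egln1, Eno2, Pfkfb1 and Pfkp, all lower, and Slc2a3, higher. The 6 were Pdk1, Egln3, Eno2, Pfkp and Slc16a3, all higher, and Slc2a3, lower. Egln3 was called lower in Dysbiotic against Young DCs on that slide, beside 6.59% of all genes called.

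Among the genes of glucose entry, the transporters and hexokinases, none was called. Slc2a1, the GLUT1 transporter, had a log2 intensity of 13.44, 13.45 and 14.29 in Young DCs, 13.38, 13.32 and 14.33 in Dysbiotic DCs, 13.29, 12.96 and 13.53 in Old DCs, and 13.49, 13.53 and 13.62 in Old-LP DCs. Old was the lowest group at each letter, but its range overlapped that of every other group. Its log2 fold change was -0.46 (SE 0.21, adjusted p = 0.413) in Old against Young DCs and 0.28 (SE 0.21, adjusted p = 0.601) in Old-LP against Old DCs, and it was -0.05 (SE 0.21) in Dysbiotic against Young DCs. Slc2a3, the high-affinity transporter GLUT3, was described after its values were seen because it lay opposite to Slc2a1. Its log2 intensity was 11.18, 11.25 and 11.45 in Young DCs and 11.33, 11.24 and 11.29 in Old-LP DCs. It was 11.75, 12.05 and 12.05 in Dysbiotic DCs and 12.09, 12.02 and 11.69 in Old DCs. All 6 Dysbiotic and Old arrays exceeded all 6 Young and Old-LP arrays, a pattern whose share over all genes was not counted. The log2 fold change was 0.64 (SE 0.17, adjusted p = 0.129) in Old against Young DCs, 0.66 (SE 0.17, adjusted p = 0.175) in Dysbiotic against Young DCs and -0.64 (SE 0.17, adjusted p = 0.142) in Old-LP against Old DCs. The hexokinases, which trap glucose as its phosphate, had values in Old against Young DCs of -0.06 for Hk1, -0.46 for Hk2 and -0.33 for Hk3, and in Old-LP against Old DCs of -0.09, 0.60 and 0.22.

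The fructose phosphate steps hold the isomerase Gpi1, the phosphofructokinase subunits and the bifunctional enzymes that set the level of fructose 2,6-bisphosphate, the allosteric activator of phosphofructokinase. None of these 8 genes was called, and 5 of 8 lay below 0 in Old against Young DCs. The subunits differed among themselves. Pfkp, the platelet-type subunit, had a log2 fold change of -0.52 (SE 0.12, adjusted p = 0.0859) in Old against Young DCs and 0.55 (SE 0.12, adjusted p = 0.0854) in Old-LP against Old DCs, and its second probe gave -0.55 and 0.59. Pfkm, the muscle-type subunit, had 0.48 (SE 0.13, adjusted p = 0.131) and -0.38 (SE 0.13, adjusted p = 0.268), while Pfkl, the liver-type subunit, had 0.03 and 0.02. The bifunctional enzymes also differed in sign. Pfkfb3, the isoform most tied to high glycolytic rates, had -0.61 (SE 0.20, adjusted p = 0.234) in Old against Young DCs and 0.63 (SE 0.20, adjusted p = 0.229) in Old-LP against Old DCs. Its difference between Old-LP and Old DCs was 0.39 at A, 0.37 at B and 1.14 at C, and its second, dimmer probe gave -0.24. Pfkfb1 had -0.44 and 0.36 and Pfkfb4 -0.23 and 0.18 in these 2 comparisons, whereas Pfkfb2 had 0.18 and -0.19.

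From aldolase to pyruvate, all 9 measured genes lay below 0 in both Old and Dysbiotic against Young DCs, and 8 of 9 lay above 0 in Old-LP against Old DCs, none called. The median log2 fold changes of the 9 were -0.33, -0.30 and 0.29 in the 3 comparisons. At an array scaling by the 75th percentile instead of quantiles the medians were -0.18, -0.34 and 0.074, and 6 of 9 lay below 0 in Old against Young DCs, 9 of 9 in Dysbiotic against Young DCs and 6 of 9 above 0 in Old-LP against Old DCs. With quantile normalization, Eno2 at -0.56 (SE 0.16), Aldoc at -0.54 (SE 0.15) and Eno3 at -0.54 (SE 0.13) lay farthest from 0 in Old against Young DCs, and these are the enolase and aldolase forms best known from nerve and muscle. In Old-LP against Old DCs the same 3 genes had 0.51, 0.44 and 0.37. At the brightest probes, their widely expressed counterparts had smaller values in Old against Young DCs, with -0.09 for Eno1 and -0.30 for Aldoa. Further probes well above background on all 12 arrays gave -0.32 for Aldoc and -0.07 and -0.36 for Eno1. The contrast between these forms thus depended on the probe read. Aldoa held the highest normalized signal of all genes, where quantile normalization leaves little room for a difference.

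Gapdh, which oxidises glyceraldehyde 3-phosphate and often serves as a reference gene, had log2 intensities of 16.27, 16.39 and 16.90 in Young DCs and 16.12, 16.30 and 16.73 in Dysbiotic DCs. They were 16.14, 16.01 and 17.02 in Old DCs and 16.58, 16.57 and 16.79 in Old-LP DCs. The groups overlapped throughout. The log2 fold change of Gapdh was -0.13 (SE 0.17, adjusted p = 0.799) in Old against Young DCs, -0.14 (SE 0.17, adjusted p = 0.884) in Dysbiotic against Young DCs and 0.26 (SE 0.17, adjusted p = 0.560) in Old-LP against Old DCs. With the 75th percentile scaling the first and the last turned to 0.15 and -0.18. Pgk1, which makes the first ATP of the lower pathway, had -0.43 in Old against Young DCs and 0.29 in Old-LP against Old DCs, Pgam1 -0.33 and 0.26, and Tpi1 -0.17 and 0.35.

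At the exit of the pathway, Ldha, the lactate dehydrogenase subunit that favours lactate formation, had a log2 fold change of -0.01 (SE 0.14, adjusted p = 0.983) in Old against Young DCs, -0.11 (SE 0.14) in Dysbiotic against Young DCs and -0.11 (SE 0.14) in Old-LP against Old DCs. The dimmer second probe of Ldha was well above background on all 12 arrays. It gave -0.38 (SE 0.20), -0.64 (SE 0.20) and -0.06 (SE 0.20) in the same order, none called. Ldhb, which favours the return to pyruvate, had -0.19, -0.25 and 0.18 in the same order. Slc16a3, the lactate exporter MCT4, had -0.39 (SE 0.16, adjusted p = 0.355) in Old against Young DCs and 0.33 in Old-LP against Old DCs. Slc16a1, the transporter MCT1, was well above background on 10 of 12 arrays. Its difference between Old-LP and Old DCs was 0.03 at A, 0.62 at B and 2.39 at C, where the Old array was not well above background. The fitted log2 fold change of Slc16a1 was 1.01 (SE 0.39, adjusted p = 0.345). Pdk4, not well above background on any array, has no fold given.

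**Figure D4:**
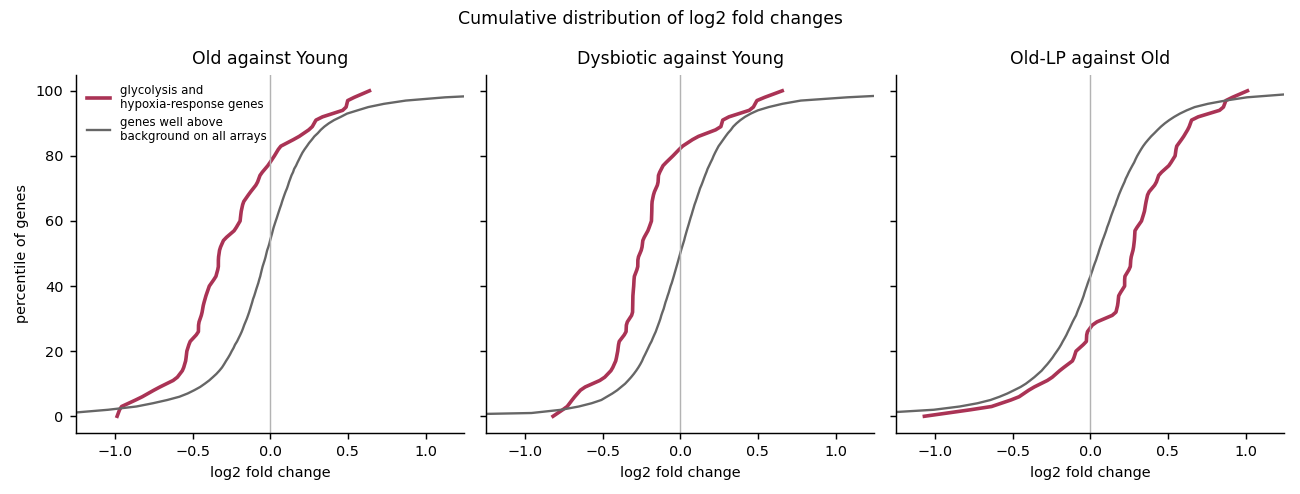
Cumulative percentile (y axis) of log2 fold changes (x axis) for the 36 genes of the set (red) and for the 10705 genes well above background on all 12 arrays (grey) in 3 comparisons. The medians of the set are -0.33 in Old against Young, -0.261 in Dysbiotic against Young and 0.269 in Old-LP against Old DCs, and those of the grey curves -0.025, -0.00086 and 0.051.

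Genes of neighbouring pathways were taken from lists of known function, also chosen with earlier results of these data known. The calls below stand beside 1.42% of all genes called lower and 1.64% higher in Old against Young DCs. The shares were 0.264% lower and 1.11% higher in Dysbiotic against Young DCs, and 1.20% lower and 1.18% higher in Old-LP against Old DCs. Of the genes well above background, 4.27%, 1.84% and 3.26% were called in either direction in these 3 comparisons. Among 18 other hypoxia-response genes, 3 fell in Old against Young DCs and 3 rose in Old-LP against Old DCs, and the medians were -0.34 and 0.40. In both comparisons they were P4ha2, a collagen prolyl hydroxylase, with log2 fold changes of -1.93 (SE 0.33, adjusted p = 0.0256) and 1.87 (SE 0.33, adjusted p = 0.0369), Adm, the vasodilator peptide adrenomedullin, with -1.05 (SE 0.15, adjusted p = 0.0131) and 1.05 (SE 0.15, adjusted p = 0.0171), and the adenylate kinase Ak4, named after its values were seen, with -0.98 and 0.93. Adm also fell in Dysbiotic against Young DCs (log2 fold change -1.20, SE 0.15, adjusted p = 0.0115) and was the 1 gene of the 18 called there. Of 6 other regulators of the HIF pathway, 1 was called, the inhibitory subunit gene Hif3a. It fell in Old (log2 fold change -1.76, SE 0.23, adjusted p = 0.00869) and in Dysbiotic DCs (-1.36, adjusted p = 0.0409) against Young DCs and rose in Old-LP against Old DCs (1.41, adjusted p = 0.0278), at a low mean log2 intensity of 7.35 in Young and 5.60 in Old DCs.

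In the entry of pyruvate to mitochondria, 1 of 9 genes was called. Pdhb, the beta subunit of the pyruvate dehydrogenase that Pdk1 inhibits, fell in Old against Young DCs (log2 fold change -1.20, SE 0.19, adjusted p = 0.0209) and rose in Old-LP against Old DCs (1.15, SE 0.19, adjusted p = 0.0307). Of 10 glycogen genes, 2 fell in Old against Young DCs, 1 fell in Dysbiotic against Young DCs and 1 rose in Old-LP against Old DCs. Pgm1, which joins glucose 1-phosphate to glycolysis, fell in Old against Young DCs (-0.86, SE 0.12, adjusted p = 0.0124) and in Dysbiotic against Young DCs (-0.72, adjusted p = 0.0435) and rose in Old-LP against Old DCs (0.66, adjusted p = 0.0441). Of 9 kinases and factors that set glycolysis in immune cells, Myc rose in Old-LP against Old DCs (0.96, SE 0.18, adjusted p = 0.0462), and none was called against Young DCs by limma, with 1 at an unadjusted p below 0.05 in Old and 0 in Dysbiotic DCs. Of 16 further glucose transporters and isozymes, Ldhd, a mitochondrial D-lactate dehydrogenase, rose in Old (1.38, SE 0.17, adjusted p = 0.00764) and Dysbiotic (1.44, adjusted p = 0.0097) against Young DCs and fell in Old-LP against Old DCs (-1.60, adjusted p = 0.00588). Ldhd was well above background on 9 of 12 arrays, and Ldhc, also called in Old against Young and Old-LP against Old DCs, on only 3, so no fold is given for Ldhc.

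The 7 genes of gluconeogenesis, the 7 of the pentose phosphate pathway and the 12 of the tricarboxylic acid cycle gave no call by limma in the comparisons of Old or Dysbiotic with Young or of Old-LP with Old DCs. At an unadjusted p below 0.05 there were 2, 0 and 2 genes of these lists in Old against Young DCs, 1, 1 and 2 in Dysbiotic against Young DCs and 1, 0 and 2 in Old-LP against Old DCs. The median of the tricarboxylic acid cycle genes was -0.11 in Old against Young DCs, beside -0.33 for the 36 genes.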

How the data were processed

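RNA of LPS-matured DCs was hybridised to one-colour (Cy3) Agilent mouse arrays, and the authors scanned them and extracted signals with Agilent Feature Extraction (10.5 in their methods, a later version per the file headers). The deposited scanner files hold intensity per spot, already background-subtracted. A deposited table holds log2 values that the authors normalized between arrays by quantiles; they were used as an alternative. Here log2 processed intensities of non-control spots, without 1068 outlier readings, were quantile-normalized, repeated spots were averaged, and 56605 probes were fitted with limma 3.58.1 in R 4.3.3, with 4 group means, the replicate letter as a fixed block and Benjamini-Hochberg adjustment over all probes. The thresholds are those of the study's methods, and the block was added. Groups and letters came from the sample titles. A gene was read at its brightest probe.

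Whether letters pair the arrays was checked on deviations from group means. Same-letter arrays correlated at 0.415 to 0.711, but A with B also at 0.449 to 0.570, so the letters chiefly set C apart. C correlated with A or B at -0.659 to -0.466. The deviations within a group sum to 0, so these negative values follow from the positive ones and are no separate evidence. Alternatives were the block, slide, scaling, normexp (offset 50, on median signals, as the files used hold no mean signal), the background filter, the probe rule and each array left out. The percentage of spots above background stands for depth, and 3 arrays per group limit the precision. The genes of the set and the lists were chosen with earlier results of these data known. All 37 genes were accounted for. Values per array were given for Hif1a, Slc2a1, Gapdh and the called genes of the set. Egln1 and Slc2a3, called in no comparison of the main fit, were added after their values were seen. Up to 2 called genes per list were named, with Ak4 added after its values were seen. Promoters were taken from RefSeq (GRCm38.p6), which matched 34 of 36 genes. A result on 1 further gene is not reported here.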

Additional observations from a re-analysis of the deposited data

How the results depend on the processing

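In the 23 alternatives, Egln3, Ndrg1 and Pdk1 kept the direction of their calls, with log2 fold changes of -1.10 to -0.81, -1.11 to -0.87 and -0.93 to -0.77 in Old against Young DCs, and 0.71 to 1.00 for Ndrg1 and 0.77 to 0.97 for Pdk1 in Old-LP against Old DCs. The calls were less stable: Egln3 stayed called in 13 of 23, Ndrg1 in 16 and Pdk1 in 14 in Old against Young DCs, and Ndrg1 in 7 and Pdk1 in 12 in Old-LP against Old DCs. The number of genes of the set called in Old against Young, Dysbiotic against Young and Old-LP against Old DCs was 3, 0 and 2 as reported, beside 742, 334 and 577 over all 24232 genes, given in brackets below. With no replicate block, that is without pairing by letter, 0, 0 and 0 were called (219, 115 and 124). Fitting the 2 compared groups alone also gave 0, 0 and 0 (0, 68 and 0), with fewer arrays to estimate the spread. The first slide alone gave 8, 1 and 6 (2503, 1596 and 2301), the slide as block 4, 2 and 4 (925, 697 and 1086), normexp 9, 4 and 5 (1081, 602 and 941), the log2 values of the authors 9, 4 and 5 (1146, 649 and 987 of 20113), probes well above background 9, 2 and 5 of 34 (1195, 652 and 1070 of 13025), an intensity trend 8, 2 and 5 (959, 491 and 805), the mean over a gene's probes 4, 1 and 2 (935, 448 and 759), and the 75th percentile scaling 3, 0 and 1 (843, 383 and 549). The cause of these differences was not tested. With 1 array left out the counts ran from 0 to 4, 0 to 2 and 0 to 2. In Old against Young DCs the count was 0 without Dysbiotic A, Old A or Young A, B or C, and 1 without Dysbiotic B or Old B. In Old-LP against Old DCs it was 0 without A or B of any group, and 1 without Dysbiotic C, Old-LP C or Young C. In Dysbiotic against Young DCs it was 2 without Old C. Adjusted p for Pdk1 in Old against Young DCs then ranged up to 0.117, for Ndrg1 to 0.121 and for Egln3 to 0.112, and in Old-LP against Old DCs to 0.130 for Pdk1 and 0.148 for Ndrg1. Old-LP against Young and Old against Dysbiotic DCs gave 0 calls throughout. The 75th percentile scaling moved the median of all genes to 0.115 in Old against Young DCs, -0.113 in Dysbiotic against Young DCs, -0.083 in Old-LP against Old DCs and 0.175 in Old against Dysbiotic DCs, where the set had -0.206, -0.299, 0.153 and 0.046. Over all alternatives, 23 to 29 genes of the set lay below 0 in Old against Young DCs, 27 to 30 in Dysbiotic against Young DCs and 7 to 13 in Old-LP against Old DCs.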

Other observations

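Some genes of the set differed more between the C arrays and the A and B arrays than between the groups. Hk3, Pfkfb3, Pfkfb4 and Bnip3 were more than 1 log2 unit higher on C than on the mean of A and B in each of the 4 groups (4 of 36, 11.1%, beside 7.04% of all genes and 9.65% of those well above background). Pfkp and Pdk3 were more than 1 log2 unit lower on C in each group (2 of 36, 5.56%, beside 5.78% and 5.61%). All these genes were chosen after their values were seen.

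Second probes gave a partial check. Among the 36 genes, 18 had 30 further named probes, of which 20 were well above background on all 12 arrays. The sign of the log2 fold change matched that of the brightest probe for 18 of these 20 in Old against Young DCs, 20 in Dysbiotic against Young DCs and 17 in Old-LP against Old DCs, and none of the further probes was called by limma. The probes that did not match belonged to Gpi1 (0.006) and the called gene Pdk1 (0.05) in Old against Young DCs. In Old-LP against Old DCs they belonged to Eno1 (0.09), Pdk1 (-0.51) and Pfkfb3 (-0.24). The probes of Vegfa matched in sign but differed in size: at 3 probes well above background on all arrays its log2 fold change in Old against Young DCs was 0.06, 0.31 and 0.67.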
